A study of Homo sapiens with 7 samples.

Results

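The genes for RNA polymerase II and the general transcription factors were followed in HEK-293, an established human embryonic kidney cell line, under acidosis and under a kinase inhibitor. Members were taken by gene symbol: POLR2 followed by a letter from A to L, TAF followed by a number with or without a letter or L (TAF1A to TAF1D, which belong to the RNA polymerase I factor SL1, were left out), and every symbol that begins with GTF2. The rule found 50 of the 19978 genes in the table. It left out 12 rows of TAF11-like genes, whose symbols carry a number after the L, of which 8 were at 0 in every sample, and 4 rows of POLR2J copies and POLR2M. The 2 control samples received DMSO, the vehicle, for 48 h at pH 7.4. The 3 acidosis samples received the same vehicle for 48 h in medium titrated to pH 6.6. The SRPIN340 group (2 samples) was kept for 48 h at pH 7.4 with 10 µM SRPIN340, an inhibitor of the kinases that phosphorylate SR-rich splicing factors. Per the paper it received the same vehicle. All 3 groups are cultures of one cell line, so the values describe that line only.

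RNA polymerase II transcribes protein-coding genes. It cannot find a promoter alone: TFIID, made of the TATA-binding protein and its associated factors (TAFs), binds around the start site, TFIIA stabilizes it, TFIIB joins it to the polymerase, TFIIF arrives with the polymerase, and TFIIE and TFIIH complete the assembly, where TFIIH opens the DNA and phosphorylates the polymerase tail. Some polymerase subunits are particular to RNA polymerase II and others are shared with RNA polymerases I and III. Because nuclear protein-coding genes depend on this machinery, its genes are commonly treated as housekeeping genes, and several TAFs also serve in the histone acetylation complex SAGA.

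Library totals lay between 13615816 and 24110460 estimated counts, with the lowest totals in acidosis replicates 2 and 3. Of the 50 members, 48 passed the filter on low counts. GTF2A1L and TAF1L, which are known mainly from the testis, held at most 4 and 8 counts in any sample and were not tested. Levels are given as CPM, the usual per-library scaling of counts, after TMM, a factor that sets the typical gene equal between libraries. They are not scaled by transcript length, so levels are compared between samples and never between genes. The share of counts taken by the 100 most abundant genes was 15.15% to 15.37% at pH 7.4, with or without SRPIN340, and 24.06% to 24.81% in acidosis. The members together took 0.4022% and 0.4169% of all counts in control, 0.3764% and 0.382% with SRPIN340, and 0.3006% to 0.3066% in acidosis. Of the markers listed for HEK-293, VIM, KRT8, KRT18, LHX1, NEFL and NEFM were expressed in all 7 samples, while CD3E, HBB, ALB and PTPRC, markers of T cells, red cells, hepatocytes and leukocytes, reached at most 14 counts, and PECAM1, an endothelial marker, at most 28. COL1A1, a collagen of fibroblasts, was at 27.9 to 37.9 CPM at pH 7.4 and 57.7 to 65.6 CPM in acidosis, and its part in the results was not tested. The HEK-293 markers themselves differed in acidosis, in both directions: PAX2, a kidney lineage factor, had a log2 fold change of -1.93 and KRT18 one of -0.26, while VIM was at 1.65, NEFM at 1.65, NEFL at 0.66, KRT8 at 0.57 and LHX1 at 0.11. In bulk RNA, fewer cells of a type and less RNA per cell cannot be told apart.

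Acidosis was compared with control to see which parts of the basal machinery differ after 48 h at low pH. A gene is said to have risen or fallen where edgeR's quasi-likelihood test gave a Benjamini-Hochberg adjusted p under 0.05 over the 14863 genes tested. Of the 48 tested members, 19 rose (39.6%) and 11 fell (22.9%), against 32.5% and 34.2% of all tested genes. In either direction 30 members passed (62.5%), against 66.7% of all tested genes. An additional limit of 1 on the absolute log2 fold change was exceeded by 8 members that rose and 5 that fell, against a background of 14.4% and 19.1%, or 33.5% in either direction. The count of changed members is thus near the background, and the members are described one by one below for where they differ from each other. The rises were led by TAF13, POLR2G and POLR2L, and the falls by GTF2H3, GTF2F1 and GTF2H2C. By role, 4 of 7 subunits particular to RNA polymerase II rose, as did 4 of 5 shared subunits, 5 of 13 members of TFIIA to TFIIH and 6 of 13 TFIID TAFs. The falls comprised 4 members of TFIIA to TFIIH, 2 TFIID TAFs, 2 of 5 TAF paralogs, TAF15 and 2 of 4 genes of the TFII-I family. The acidosis samples all lay above control in 22 members (45.8%) and all below in 18 (37.5%), against 37.0% and 39.4% of all tested genes. The median log2 fold change was 0.09 over the members and -0.05 over all tested genes.

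**Figure D1:**
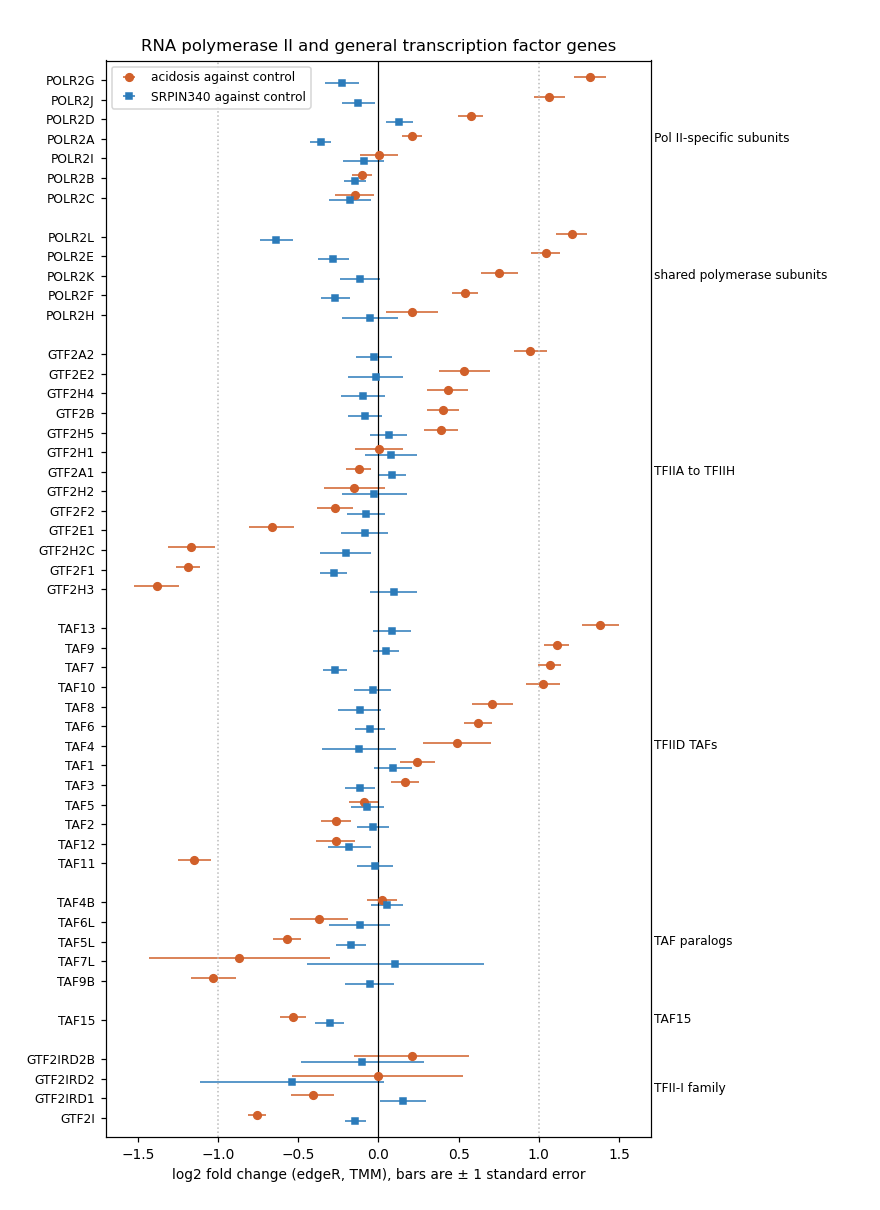
Log2 fold change of each of the 48 tested genes (x axis, edgeR with TMM scaling), grouped by role, for acidosis against control (orange circles) and SRPIN340 against control (blue squares), with bars of 1 standard error and dotted lines at -1 and 1. Acidosis values spread from -1.38 (GTF2H3) to 1.38 (TAF13), while no SRPIN340 value passes the dotted lines.

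The split between rises and falls depended on the scaling. Where each library was scaled by its total count alone, the median over all tested genes moved from -0.05 to -0.63 and that of the members from 0.09 to -0.48, and 9 members rose while 26 fell. The share of all tested genes that passed by total count is not given here, so these counts are no result about the members. RNA per cell was not measured, so the changes are relative to the typical gene. All 13 members past the fold limit passed in the same direction under both scalings: by total count the 8 that rose lay between 0.45 and 0.81 and the 5 that fell between -1.96 and -1.60. The smaller rises of GTF2B, GTF2E2, GTF2H4, GTF2H5, POLR2D, POLR2F, POLR2K, TAF6 and TAF8 no longer passed by total count, and POLR2A turned from higher to lower.

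**Figure D2:**
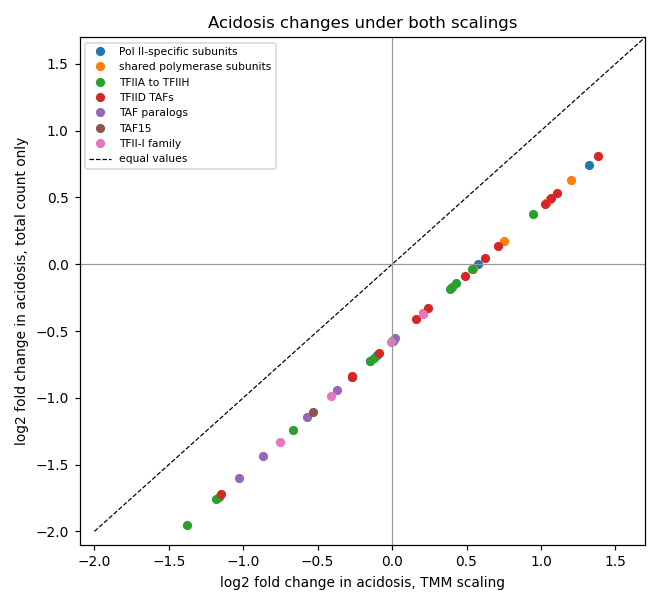
Log2 fold change of the 48 tested genes in acidosis against control under TMM scaling (x axis) and under scaling by total count only (y axis), colored by role, with a dashed line where both would be equal. All points lie below the dashed line by a like amount, and points near 0 on the x axis fall below 0 on the y axis.

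The start regions of 4 members are shown because they are the largest rises and the largest falls for which a promoter was at hand: TAF13 and POLR2L rose, GTF2H3 and GTF2F1 fell. Each sequence is the 250 bases before the start that RefSeq gives on GRCh38.p14, read 5′ to 3′ on the gene's strand, and 38 of the 50 members matched an entry. GENCODE, used for gene structures, begins the gene further upstream for 3 of the 4: the RefSeq start lies 9 bases inside the GENCODE gene for TAF13, 90 for GTF2H3 and 817 for GTF2F1, so the region shown for GTF2F1 is wholly inside the GENCODE gene. For POLR2L both starts are the same. Capitals mark matches on either strand to any of 6 motifs. The GC box was searched as GGGCGG, the ETS factor motif as CCGGAAG, the cyclic AMP response element (CRE) as TGACGTCA, the CCAAT box by its name and the TATA box as its 6 letters TATAAA, while the NRF1 motif is given by name. No match overlapped another in the 4 regions. The regions are chr1:109076004-109076253 on the minus strand for TAF13, chr11:842530-842779 on the minus strand for POLR2L, chr12:123633579-123633828 on the plus strand for GTF2H3 and chr19:6393165-6393414 on the minus strand for GTF2F1.
TAF13: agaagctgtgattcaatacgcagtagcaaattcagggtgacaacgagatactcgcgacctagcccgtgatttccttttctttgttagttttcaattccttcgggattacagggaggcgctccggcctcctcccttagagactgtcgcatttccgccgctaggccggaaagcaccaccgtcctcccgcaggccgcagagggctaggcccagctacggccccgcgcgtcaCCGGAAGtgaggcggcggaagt
POLR2L: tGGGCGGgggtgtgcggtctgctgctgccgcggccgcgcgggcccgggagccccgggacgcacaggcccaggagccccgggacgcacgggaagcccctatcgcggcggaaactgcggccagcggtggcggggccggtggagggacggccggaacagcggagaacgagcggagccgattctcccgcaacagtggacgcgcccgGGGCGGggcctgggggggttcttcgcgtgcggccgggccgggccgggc
GTF2H3: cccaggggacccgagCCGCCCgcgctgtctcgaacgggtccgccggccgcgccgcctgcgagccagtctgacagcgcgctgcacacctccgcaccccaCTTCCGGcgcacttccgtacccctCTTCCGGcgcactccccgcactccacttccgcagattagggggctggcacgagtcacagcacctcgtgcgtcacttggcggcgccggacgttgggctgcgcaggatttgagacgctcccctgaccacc
GTF2F1: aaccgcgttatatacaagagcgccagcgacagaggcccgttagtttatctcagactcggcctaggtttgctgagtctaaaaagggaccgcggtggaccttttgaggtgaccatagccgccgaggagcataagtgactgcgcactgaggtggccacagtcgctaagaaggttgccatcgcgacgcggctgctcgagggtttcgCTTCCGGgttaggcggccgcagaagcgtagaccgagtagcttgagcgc
An ETS match lay 22 bases before the start of TAF13 and 48 bases before that of GTF2F1, and GTF2H3 held ETS matches at 152 and 128 bases. POLR2L held GC boxes at 249 and 48 bases, and GTF2H3 held one at 235 bases. Positions count the first base of a match. Among 11825 tested genes with a promoter in the table, 14.7% held the ETS letters, 66.1% the GC box, 34.9% the CCAAT box, 5.95% the TATA box, 2.76% the CRE and 1.79% the NRF1 letters. The GC content was 58.4% for TAF13 and for GTF2F1, 79.2% for POLR2L and 71.2% for GTF2H3, against a median of 64.8%. The ETS letters occurred in a promoter whose gene rose and in both whose genes fell. A match is a description of letters, and no binding was measured.

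Among the 7 subunits particular to RNA polymerase II, POLR2G, POLR2J, POLR2D and POLR2A rose, and POLR2B, POLR2C and POLR2I did not pass. POLR2G, which forms the stalk of the enzyme with POLR2D, was at 33.9 and 37.6 CPM in control and at 87.3, 83.9 and 96.5 CPM in acidosis. It rose by 1.32 on the log2 scale (SE 0.10, edgeR adjusted p = 2.1e-06), and the lowest acidosis sample stood far above both controls. Its stalk partner POLR2D was at 114 and 102 CPM in control and at 154, 161 and 166 CPM in acidosis, a log2 fold change of 0.57 (SE 0.08, edgeR adjusted p = 0.00012). The stalk genes thus rose together but by unequal amounts. POLR2J, which helps to nucleate assembly with POLR2C, was at 48.6 and 55.2 CPM in control and at 102, 106 and 117 CPM in acidosis, a log2 fold change of 1.06 (SE 0.10, edgeR adjusted p = 7.2e-06). POLR2C itself was at 65.7 and 70.6 CPM in control and at 68.6, 51.0 and 64.3 CPM in acidosis, and the groups overlapped. POLR2J has near-identical copies, POLR2J2 and POLR2J3, so its estimated counts are uncertain.

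The catalytic subunits moved little. POLR2A, the largest subunit, which carries the tail that TFIIH phosphorylates, was at 566 and 522 CPM in control and at 649, 632 and 604 CPM in acidosis. The 3 acidosis samples lay above both controls, with a log2 fold change of 0.21 (SE 0.06, edgeR adjusted p = 0.014), but by total count its log2 fold change was -0.37. Without control replicate 2 the rise of POLR2A did not pass. POLR2B, which completes the active center with POLR2A, was at 156 and 153 CPM in control and at 140, 147 and 145 CPM in acidosis, a log2 fold change of -0.10 (SE 0.06, edgeR adjusted p = 0.18). POLR2I, a small subunit that acts in start site choice and proofreading, was at 50.5 and 62.1 CPM in control and at 50.9, 58.0 and 60.7 CPM in acidosis, and the groups overlapped throughout. It had the smallest change of its role group.

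The shared subunits, which RNA polymerases I and III also use, had the highest median log2 fold change of the role groups with more than 1 gene, 0.75. POLR2L, a small zinc-binding subunit of the assembly platform, was at 32.4 and 34.5 CPM in control and at 81.6, 77.0 and 72.4 CPM in acidosis, a log2 fold change of 1.20 (SE 0.10, edgeR adjusted p = 3e-06). POLR2E, which contacts the DNA ahead of the enzyme, was at 96.2 and 97.6 CPM in control and at 213, 178 and 206 CPM in acidosis, a log2 fold change of 1.04 (SE 0.09, edgeR adjusted p = 5e-06). In both genes all acidosis samples stood clear of the controls. POLR2K and POLR2F rose by 0.75 and 0.54 on the log2 scale (edgeR adjusted p = 0.00028 and 0.00027). POLR2H, the remaining shared subunit, was at 26.2 and 35.9 CPM in control and at 40.1, 30.0 and 37.5 CPM in acidosis. Its groups overlapped, and its log2 fold change of 0.21 (SE 0.16) did not pass. No subunit of RNA polymerase II of either kind fell by edgeR: 0 of 12 had an unadjusted p under 0.05 in that direction, and DESeq2 called 0, whereas by total count POLR2A, POLR2B, POLR2C and POLR2I passed as lower. Over all tested genes, 34.2% fell by edgeR, 35.8% were lower at an unadjusted p under 0.05 and 32.1% by DESeq2.

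**Figure D3:**
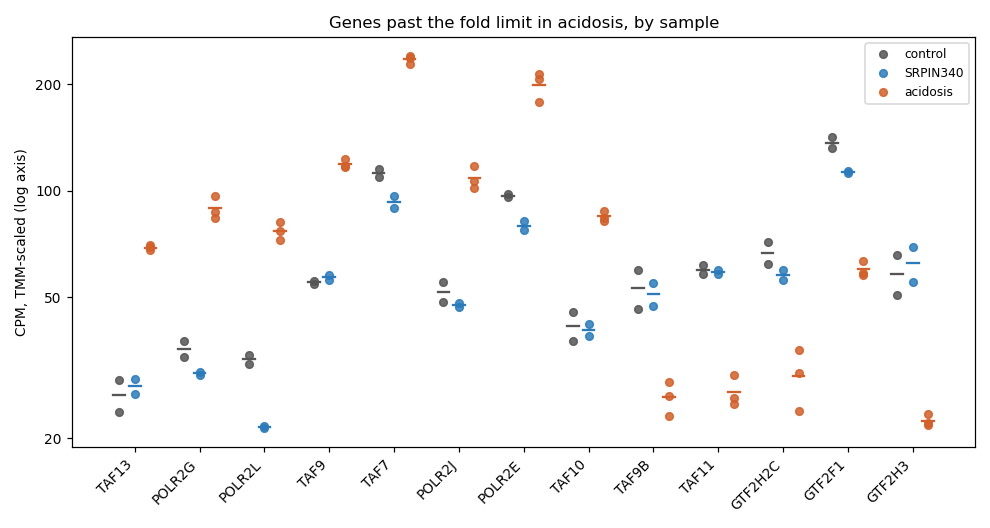
TMM-scaled CPM (log axis) in each sample for the 13 genes past the fold limit in acidosis against control, with control in grey, SRPIN340 in blue, acidosis in orange and short lines at the group means. In each gene the 3 acidosis points stand apart from the 2 control points, above them in the 8 genes at the left and below them in the 5 at the right.

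The factors TFIIA to TFIIH split in both directions, often within one complex. GTF2F1, the large subunit of TFIIF, was at 142 and 132 CPM in control and at 63.5, 57.9 and 58.7 CPM in acidosis. It fell by 1.19 on the log2 scale (SE 0.08, edgeR adjusted p = 7.9e-07), and the highest acidosis sample was below both controls by a wide margin. The small subunit GTF2F2 had a log2 fold change of -0.27 (SE 0.11, edgeR adjusted p = 0.055) and did not pass. In TFIIE, GTF2E1, the large subunit, fell by 0.67 (edgeR adjusted p = 0.002), and GTF2E2, the small subunit, rose by 0.54 (edgeR adjusted p = 0.014). In TFIIA, GTF2A2, the small subunit, rose by 0.95 (edgeR adjusted p = 2.7e-05), and GTF2A1, which encodes the precursor of the other subunits, had a log2 fold change of -0.12 (SE 0.08) and did not pass. GTF2B, the single subunit of TFIIB, rose by 0.40 (SE 0.10, edgeR adjusted p = 0.0051). The rise of GTF2E2 did not pass without either control sample, and that of GTF2B not without control replicate 2.

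TFIIH, whose core opens the promoter DNA and also serves in nucleotide excision repair, held the largest fall. GTF2H3, a core subunit, was at 65.8 and 50.9 CPM in control and at 22.1, 23.4 and 21.8 CPM in acidosis, a log2 fold change of -1.38 (SE 0.14, edgeR adjusted p = 1.5e-05). The acidosis samples differed little from each other, and the controls lay far above them. GTF2H2C was at 71.5 and 61.9 CPM in control and at 23.9, 35.4 and 30.5 CPM in acidosis, a log2 fold change of -1.17 (SE 0.15, edgeR adjusted p = 7.6e-05). It is a near-identical copy of GTF2H2 on chromosome 5, and GTF2H2 was at 30.7 and 26.6 CPM in control and at 19.8, 33.0 and 25.1 CPM in acidosis, where the groups overlapped. How the quantification split reads between these copies is not known, so neither value stands alone. GTF2H4 and GTF2H5, subunits that regulate the helicases of the core, rose by 0.43 and 0.39 on the log2 scale (edgeR adjusted p = 0.013 and 0.0093), though neither passed without control replicate 1. GTF2H1, a core scaffold subunit, was at 41.4 and 37.7 CPM in control and at 35.8, 48.4 and 34.9 CPM in acidosis, with overlapping groups and the smallest change of its role group.

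Of the 13 TFIID TAFs, 6 rose (TAF6, TAF7, TAF8, TAF9, TAF10 and TAF13), 2 fell (TAF2 and TAF11) and 5 did not pass. That is 46.2% and 15.4%, against 32.5% and 34.2% of all tested genes. In either direction 61.5% passed, against 66.7%. TAF13 was at 29.2 and 23.8 CPM in control and at 67.9, 69.3 and 70.2 CPM in acidosis, a log2 fold change of 1.38 (SE 0.11, edgeR adjusted p = 3.7e-06). TAF11, with which TAF13 forms a histone-fold dimer, moved the other way, from 61.6 and 58.3 CPM in control to 25.0, 26.1 and 30.3 CPM in acidosis. Its log2 fold change was -1.15 (SE 0.10, edgeR adjusted p = 7.2e-06). The controls of TAF11 thus stood above its acidosis samples, and those of TAF13 below. TAF7, which binds TAF1 and restrains its activity, was at 115 and 109 CPM in control and at 229, 240 and 237 CPM in acidosis, a log2 fold change of 1.07 (SE 0.07, edgeR adjusted p = 9.4e-07). The canonical transcript of TAF7 has 1 exon, the only such transcript among the members that passed. TAF1, the largest TAF, had a log2 fold change of 0.24 (SE 0.11, edgeR adjusted p = 0.069). By DESeq2 TAF1 passed, at 0.27 (adjusted p = 0.047).

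TAF9, a histone-fold partner of TAF6, was at 55.5 and 54.7 CPM in control and at 117, 123 and 117 CPM in acidosis, a log2 fold change of 1.11 (SE 0.08, edgeR adjusted p = 1.1e-06). TAF9 shares 151 exon bases on the same strand with AK6, so part of its counts may belong to AK6. TAF6 rose by 0.62 (SE 0.09, edgeR adjusted p = 0.00013), less than its partner. TAF6 overlaps AP4M1 on the opposite strand over 926 exon bases, so the limit given for TAF10 below holds for it too. TAF10, which dimerizes with TAF8 and TAF3, was at 37.5 and 45.5 CPM in control and at 81.9, 84.0 and 87.9 CPM in acidosis, a log2 fold change of 1.03 (SE 0.11, edgeR adjusted p = 1.7e-05). It overlaps ILK on the opposite strand over 1529 exon bases, and whether the quantification used strand is not given in the sources used here. TAF8 rose by 0.71 (SE 0.13, edgeR adjusted p = 0.00073), and TAF3 had a log2 fold change of 0.16 (SE 0.09) and did not pass. TAF5, the scaffold of the TFIID core, was at 35.0 and 35.7 CPM in control and at 33.1, 33.0 and 33.8 CPM in acidosis. Its acidosis samples were all slightly below the controls, with a log2 fold change of -0.09 (SE 0.09) that did not pass. TAF4 ranged from 29.6 to 53.1 CPM in acidosis, a wide spread set by acidosis replicate 1. Its log2 fold change of 0.49 (SE 0.21) did not pass in the main edgeR fit. TAF4 did pass by DESeq2 (log2 fold change 0.51, adjusted p = 0.03) and by edgeR with the replicate block. TAF2, which binds the initiator element, fell by 0.27 (edgeR adjusted p = 0.029), but the fall did not pass without control replicate 1, acidosis replicate 1 or acidosis replicate 3.

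None of the 5 tested TAF paralogs rose by edgeR, with 0 at an unadjusted p under 0.05 and 0 by DESeq2. TAF9B and TAF5L fell. Over all tested genes, 32.5% rose and 34.2% fell by edgeR, 34.1% were higher at an unadjusted p under 0.05 and 32.9% by DESeq2. With 5 genes, these counts are no result about the paralogs. TAF9B, which can replace TAF9, was at 59.9 and 46.4 CPM in control and at 23.2, 28.8 and 26.4 CPM in acidosis, a log2 fold change of -1.03 (SE 0.14, edgeR adjusted p = 0.00013). TAF5L, the counterpart of TAF5 in SAGA, was at 72.0 and 72.3 CPM in control and at 49.7, 50.8 and 45.1 CPM in acidosis, a log2 fold change of -0.57 (SE 0.09, edgeR adjusted p = 0.00025). All acidosis samples of both genes lay below the controls. TAF4B, a paralog of TAF4 known from germ cells, was at 44.5 and 42.4 CPM in control and at 43.5, 42.1 and 46.7 CPM in acidosis, with overlapping groups. TAF6L had a log2 fold change of -0.37 (SE 0.18), and TAF7L, at 0.24 to 1.03 CPM, one of -0.87 (SE 0.56). Neither passed.

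TAF15, an RNA-binding protein of the FET family that was found with TFIID, was at 334 and 297 CPM in control and at 206, 239 and 211 CPM in acidosis. It fell by 0.53 on the log2 scale (SE 0.08, edgeR adjusted p = 0.00027), with all acidosis samples below the controls. GTF2I encodes TFII-I, a signal-responsive factor that shares the name of the general factors but is not needed for basal assembly. It was at 360 and 346 CPM in control and at 214, 203 and 210 CPM in acidosis, a log2 fold change of -0.76 (SE 0.06, edgeR adjusted p = 2.4e-06). Its counts may be shared with pseudogene copies in the same region. GTF2IRD1, a relative of GTF2I, was at 43.5 and 40.9 CPM in control and at 35.9, 33.3 and 25.8 CPM in acidosis, a log2 fold change of -0.41 (SE 0.13, edgeR adjusted p = 0.022). The fall of GTF2IRD1 did not pass without control replicate 1. GTF2IRD2 and GTF2IRD2B, near-identical copies of each other, ranged over 1.29 to 6.53 and 3.65 to 9.63 CPM in the 7 samples, and neither passed.

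Some members that are partners or counterparts of each other changed by unequal amounts within the same libraries. The log2 ratio of their CPM does not depend on the library scaling, and 10 such ratios were computed. The partners were chosen after the values had been seen, so the ratios are descriptions with no test. Partners that both rose, TAF6 with TAF9 (0.62 and 1.11) and TAF8 with TAF10 (0.71 and 1.03), were not among them. The ratio of TAF11 to TAF13 was 1.08 and 1.29 in control and -1.44, -1.41 and -1.21 in acidosis, a difference of -2.54 between the group means. For TAF9B to TAF9 it was 0.11 and -0.24 in control and -2.34, -2.09 and -2.15 in acidosis, a difference of -2.13. The difference was -1.23 for POLR2C to POLR2J, -1.18 for GTF2E1 to GTF2E2, -1.07 for GTF2A1 to GTF2A2 and -1.01 for TAF6L to TAF6. The smaller shifts were -0.92 for GTF2F1 to GTF2F2, -0.49 for TAF5L to TAF5 and -0.42 for TAF4B to TAF4. The ratio of TAF4B to TAF4 was 0.60 and 0.62 in control and -0.29, 0.51 and 0.35 in acidosis, so its shift rests largely on acidosis replicate 1. POLR2G to POLR2D was 0.74 higher in acidosis.

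**Figure D4:**
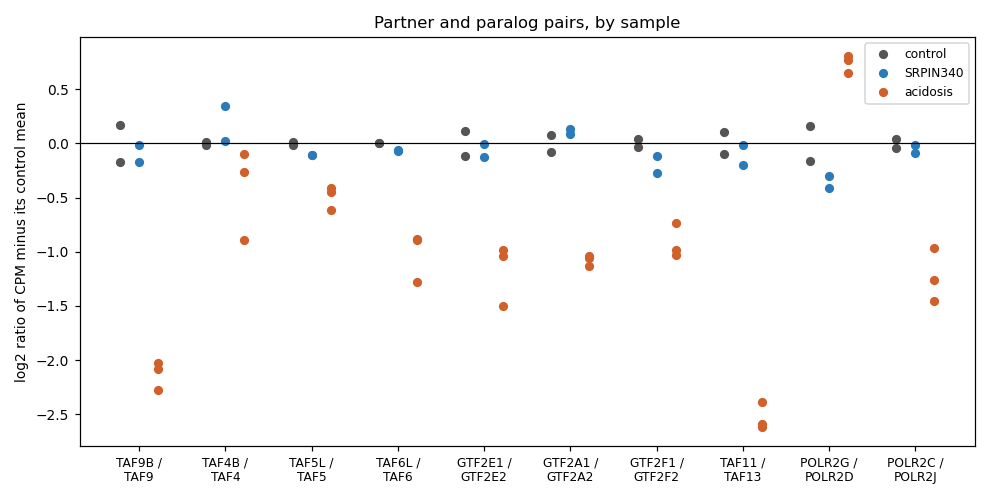
Log2 ratio of the CPM of the first to the second gene of each of 10 pairs, minus its mean over the control samples (y axis), in each control (grey), SRPIN340 (blue) and acidosis (orange) sample. The acidosis points of TAF11 / TAF13 and TAF9B / TAF9 lie lowest, below -2, and POLR2G / POLR2D is the one pair whose acidosis points lie above 0.

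The rule used symbols only, so gene structure could be set beside the changes. The canonical transcripts of the 19 members that rose had a median of 5 exons and a length of 1747 nt. The 11 that fell had medians of 13 exons and 3174 nt, and the 18 that did not pass 12 exons and 3135 nt. Over all tested genes the corresponding medians were 8 exons and 3175 nt, 10 exons and 3660 nt, and 9 exons and 3301 nt. Across the 48 members the log2 fold change in acidosis had a Pearson r of -0.46 with the logarithm of the exon number and a Spearman rho of -0.47. Across 14862 tested genes the values were -0.06 and -0.08. These are descriptions across genes of the same 5 libraries, and genes are not independent replicates. In words, the members that rose have a lower median exon number than those that fell. The same order of medians is present but small over all genes. The sets overlap: POLR2A, which rose, has 30 exons, and TAF11, which fell, has 5.

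SRPIN340 at normal pH was compared with the same control samples to ask how the kinase inhibitor alone bears on these genes. By edgeR, 2 of 48 members fell (4.17%), POLR2A and POLR2L, against 1.53% of all tested genes, and none rose, against 0.767% (2.3% in either direction). At an unadjusted p under 0.05 the counts were 7 lower and 0 higher, against 9.48% and 8.15% of all tested genes. DESeq2 gave 5 lower and 0 higher, against 5.89% and 3.25% of the genes it gave an adjusted p. No member exceeded the fold limit, against 0.195% of all tested genes for falls, 0.128% for rises and 0.323% for either. POLR2A was at 415 and 432 CPM with SRPIN340, below both controls at 566 and 522 CPM, a log2 fold change of -0.36 (SE 0.07, edgeR adjusted p = 0.034). POLR2L was at 21.7 and 21.3 CPM with SRPIN340, below both controls at 32.4 and 34.5 CPM, a log2 fold change of -0.64 (SE 0.10, edgeR adjusted p = 0.021). Neither fall passed when any single control or SRPIN340 sample was left out, and POLR2L alone passed without acidosis replicate 1, since all groups share one estimate of the spread.

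Of the 48 members, 37 had a log2 fold change below 0. GTF2IRD2, at low counts, had one of -0.54 (SE 0.57), larger than that of POLR2A, and did not pass. The median was -0.09 over the members and 0.00 over all tested genes. The groups did not overlap in 20 members that lay below control and 4 that lay above (41.7% and 8.33%), against 26.8% and 27.3% of all tested genes. DESeq2 added TAF7 (log2 fold change -0.28, adjusted p = 0.026), TAF15 (-0.31, adjusted p = 0.03) and GTF2F1 (-0.29, adjusted p = 0.041) to the falls. All 5 shared subunits had log2 fold changes below 0 with SRPIN340, from -0.06 for POLR2H to -0.64 for POLR2L. Of the 3 largest rises in acidosis, TAF13 and POLR2G had log2 fold changes of 0.08 and -0.23 with SRPIN340, which did not pass, and POLR2L one of -0.64, which did. Of the 3 largest falls, GTF2H3, GTF2F1 and GTF2H2C had values of 0.10, -0.28 and -0.20 by edgeR, none of which passed.

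The comparisons of acidosis and of SRPIN340 with control share the control samples, so their values are set side by side only, and the difference was tested directly. Between acidosis and SRPIN340, 21 members were higher and 12 lower in acidosis (43.8% and 25.0%), against 32.8% and 35.0% of all tested genes, or 67.8% in either direction. The acidosis samples all lay above those with SRPIN340 in 22 members (45.8%) and all below in 14 (29.2%), against 37.7% and 40.6% of all tested genes. The fold limit was exceeded by 8 higher and 2 lower members, against 14.9% and 19.7%, or 34.6% in either direction. By total count 9 were higher and 26 lower, where the median log2 fold change was -0.41 over the members and -0.67 over all tested genes. The lower members past the limit were GTF2H3 (log2 fold change -1.48) and TAF11 (-1.12). POLR2L differed most, with a log2 fold change of 1.84 (SE 0.10, edgeR adjusted p = 2.5e-07), and POLR2A had one of 0.57 (SE 0.06, edgeR adjusted p = 2.7e-05). These are the members that passed on opposite sides of control in the 2 conditions. By total count the difference for POLR2A no longer passed.

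Neighboring parts of the machinery that the rule did not hold were counted from hand-written lists. The shares of all tested genes in acidosis, 32.5% higher and 34.2% lower, stand beside the counts of every list. Of 10 tested genes for TFIIH subunits, the TBP family and regulators of TBP, 3 rose and 6 fell in acidosis. TBP, which the TAFs surround, was at 26.8 ± 1.6 CPM in control (SD, n = 2) and 20.9 ± 1.8 CPM in acidosis (SD, n = 3), a log2 fold change of -0.36 (SE 0.12, edgeR adjusted p = 0.022). DRAP1 and DR1, which together form the TBP repressor NC2, rose by 1.42 and 1.35 on the log2 scale, and ERCC3, a helicase of TFIIH, fell by 1.18. Of 33 Mediator genes, which bridge activators and polymerase, 13 rose and 13 fell. MED30 rose by 1.76 on the log2 scale, and MED29 and MED4 had log2 fold changes of -2.49 and -1.67. Of 34 genes of pausing and elongation, 13 rose and 13 fell, with CCNT1, the cyclin of P-TEFb, higher by 2.25, and ELL3 and RTF1, both elongation factors, lower at -1.89. HEXIM2, a relative of HEXIM1 below the 5 CPM mean required for naming and added after its values were seen, was at 5.40 and 5.62 CPM in control and at 0.17 to 0.30 CPM in acidosis, a log2 fold change of -4.41 (SE 0.32, edgeR adjusted p = 1.7e-06). MED29, CCNT1, HEXIM2, MED30, MED4, ELL3, RTF1 and DRAP1 were among the listed genes that moved further than any of the 48 members.

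In the assembly of RNA polymerase II and the phosphatases of its tail, 8 of 17 genes rose and 7 fell, and the largest log2 fold changes were -2.45 for RPAP2, -1.99 for CTDSP1 and -1.90 for RPAP3. RPAP2 removes phosphate from the tail and helps to import the enzyme, and RPAP3 serves in its assembly with chaperones. Of 14 SAGA genes other than TAFs, 3 rose and 5 fell. ATXN7 and SUPT7L rose by 1.57 and 1.03, and SUPT3H fell by 0.79. Of 18 subunits found in RNA polymerases I and III but not in II, 5 rose and 9 fell, and POLR3B fell by 2.29 on the log2 scale while POLR1H rose by 2.06. Median log2 fold changes of the lists lay between -0.38 for the TFIIH and TBP list and 0.18 for the assembly list. By total count all 6 medians were below 0, from -0.95 for the TFIIH and TBP list to -0.39 for the assembly list, against -0.63 over all tested genes. More genes fell than rose by total count in every list (20 against 8 in Mediator and 24 against 7 in pausing and elongation). With the median of all tested genes that low, this is not read as a trait of the lists. With SRPIN340, 3 of 126 tested listed genes passed (2.38%), about the share among all tested genes (2.3%), and they are named after their values were seen. MED12L, of the Mediator kinase module, had a log2 fold change of 0.76 (SE 0.16, edgeR adjusted p = 0.049). HEXIM1, which holds P-TEFb inactive, fell by 0.67 (SE 0.09, edgeR adjusted p = 0.0083), and PAF1, of the elongation complex of that name, fell by 0.37 (SE 0.07, edgeR adjusted p = 0.035).

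**Figure D5:**
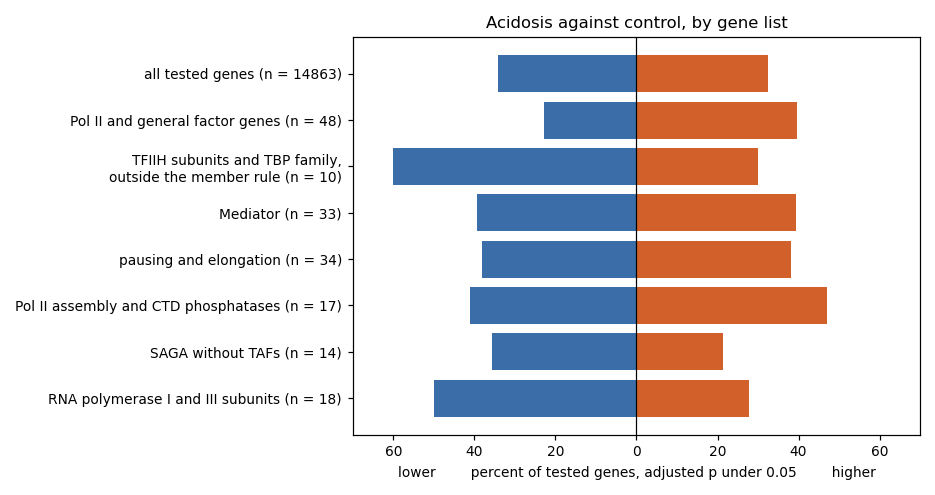
Percent of tested genes with an adjusted p under 0.05 in acidosis against control, higher to the right in orange and lower to the left in blue, for all 14863 tested genes, the 48 members and 6 lists of neighboring machinery with their sizes. The members have a longer bar to the right (39.6%) than to the left (22.9%), and the TFIIH and TBP list the reverse.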

How the data were processed

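Poly(A)-selected RNA of 7 HEK-293 samples was sequenced. Per the labels, the authors trimmed reads with Trimmomatic 0.39 and Trim Galore 0.6.6 and quantified transcripts with Salmon 1.5.1 on GRCh38, and the deposited table holds estimated counts for each gene, summed with tximport and not normalized between samples. The paper names 2 biological repeats (3 for acidosis), and the table has 1 column per sample, so p-values measure the spread between these samples, which may in part be technical. Symbols and gene structures were matched by Ensembl identifier to GENCODE for 19977 of 19978 genes, and 1951 genes were at 0 throughout.

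Estimated counts were rounded. The test was edgeR's quasi-likelihood test (version 4.0.16 under R 4.3.3) after filterByExpr and TMM, with all 7 samples in one fit without a block. The Benjamini-Hochberg adjustment ran over the 14863 genes tested, and the standard error was taken from the test statistic. DESeq2 1.42.0, the authors' tool, was an alternative, as were RLE size factors, total count only, no filter, only the groups compared, a replicate block and each sample left out. In simulated counts with 200 of 14863 genes changed, all past the fold limit, edgeR recovered 85.5% for acidosis against control with 15 false calls and 80.5% for SRPIN340 against control with 10. In the real acidosis comparison 66.7% of tested genes passed. The simulation thus does not measure recovery or false calls for smaller changes or for so broad a shift.

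Values in every sample are given for members past the fold limit and, per role, the 2 with the smallest adjusted p and the 1 with the smallest change in acidosis, at a mean of at least 5 CPM; POLR2A and the members named beside a partner were added after their values were seen. From each list of neighboring machinery, the 3 members with the largest change among those that passed with a mean of at least 5 CPM are named, and TBP; 1 such member is not reported here. Members, lists and pairs were chosen with earlier results of these data known. Promoter sequences are from RefSeq, and figures were drawn with matplotlib 3.10.9.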

Additional observations from a re-analysis of the deposited data

Results flagged for a closer look

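For 2 genes the changes in acidosis and with SRPIN340 each passed edgeR's test against control in opposite directions, and the difference itself passed too. Neither fall with SRPIN340 passed with the replicate block, and the dependence of these changes on single samples is given above. POLR2L, a subunit shared by all 3 RNA polymerases, was higher in acidosis than with SRPIN340 by 1.84 on the log2 scale (SE 0.10, adjusted p = 2.5e-07), from a log2 fold change against control of 1.20 in acidosis and -0.64 with SRPIN340, and all 3 acidosis samples lay above and both SRPIN340 samples below the controls. POLR2A, the largest subunit of RNA polymerase II, was higher by 0.57 (SE 0.06, adjusted p = 2.7e-05), from 0.21 in acidosis and -0.36 with SRPIN340. By total count POLR2A was lower than control in both conditions, at -0.37 and -0.32, while POLR2L kept its rise in acidosis at 0.63.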

How the results depend on the processing

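By total count only, the members that passed in acidosis against control were 9 higher and 26 lower, of which 21 are among the main 30 and 20 in the same direction, and in acidosis against SRPIN340 they were 9 higher and 26 lower. The medians over all tested genes by total count were -0.63 and -0.67 in these comparisons. The log2 fold change in acidosis went from above to below 0 by total count in 14 of 48 members, 6 of which then passed as lower, among them POLR2A (-0.37), POLR2I (-0.57), GTF2H1 (-0.57) and TAF4B (-0.55). Of these 14, POLR2A alone passed under both scalings. With the fold limit, the counts were 8 higher and 5 lower in acidosis against control, 0 and 0 with SRPIN340, and 8 higher and 2 lower in acidosis against SRPIN340. For acidosis against control, DESeq2 gave 21 higher and 11 lower members, with TAF1 and TAF4 added to the main 30. It gave 32.9% higher and 32.1% lower over all tested genes. For SRPIN340 against control, DESeq2 gave 5 lower and the replicate block 0. Leaving out each sample gave 16 to 20 higher and 9 to 12 lower members in acidosis against control, 0 higher and 0 to 2 lower with SRPIN340, and 18 to 21 higher and 9 to 12 lower in acidosis against SRPIN340, with some libraries leaving an arm of 1 sample whose spread is taken from the other groups. Samples of different groups that carry the same replicate number did not deviate together (correlations of -0.115 to 0.063), so the replicate block pairs samples by number only, with 28 passing members in acidosis against control, 27 of them among the main 30. RLE size factors, no filter and the fit of only the groups compared kept all 30. The cause of these shifts was not tested, except that total count differs from TMM by one factor per library. Low counts limit GTF2IRD2, GTF2IRD2B and TAF7L, whose standard errors were 0.53, 0.36 and 0.56.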
